A study of Mus musculus with 18 samples.

Results

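The 10 genes described here encode enzymes and regulators of de novo lipogenesis, the making of fatty acids from non-lipid carbon. They were taken by name (Fasn, Acaca, Acacb, Acly, Scd1, Scd2, Elovl6, Srebf1, Thrsp and Me1) and matched to the Ensembl identifiers of a table of 43430 genes. All 10 were found and all 10 passed the filter on low counts, among 13596 genes tested. Quadriceps myofibers of C57BL/6 mice (the substrain C57BL/6J in the study's methods) gave 18 RNA libraries in 6 groups of 3, males and females on vehicle, weekly prednisone or daily prednisone. Prednisone is a synthetic glucocorticoid. By the study's methods, mice were 10 weeks old at the start and were injected for 4 weeks with 1 mg per kg of prednisone every day, or with 1 prednisone dose a week and vehicle on the days between. Vehicle was DMSO in PBS, and each dose was given in PBS. Weekly treated mice were killed 2 days after their last prednisone dose. The muscle was digested with collagenase and passed through a strainer, and the retained fraction was taken as myofibers. RNA of any other cells or tissue in that fraction is counted with that of the fibers.

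In lipogenesis, ATP citrate lyase cleaves citrate to acetyl-CoA, acetyl-CoA carboxylase turns this into malonyl-CoA, and fatty acid synthase builds palmitate with NADPH, part of which comes from malic enzyme. Elovl6 then lengthens the chain, and the stearoyl-CoA desaturases place a double bond in it. SREBP-1, the product of Srebf1, and Thrsp, a small nuclear protein also called Spot 14, promote the expression or activity of these enzymes. Liver and adipose tissue are the main sites of the pathway, and muscle fibers make little fat from sugar. In muscle the carboxylase isoform encoded by Acacb sits at the mitochondria, where its malonyl-CoA limits the entry of fatty acids for oxidation.

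RefSeq start site windows were available for 8 of the members, in 11 windows on build GRCm38.p6, and the 250 bases before each start were searched on both strands. The Fasn window is shown because Fasn had the largest fitted change of the 10. A Srebf1 window is shown because Srebf1 encodes the transcription factor of the pathway. It is 1 of 3, and not every Srebf1 window held a match. The Fasn window lies at chr11:120824548-120824797 on the minus strand and the Srebf1 window at chr11:60210472-60210721 on the minus strand. Capitals mark CCAAT, the box bound by NF-Y, or its reverse complement ATTGG. Both stretches lie outside all exons of GENCODE mouse release 21.
Fasn: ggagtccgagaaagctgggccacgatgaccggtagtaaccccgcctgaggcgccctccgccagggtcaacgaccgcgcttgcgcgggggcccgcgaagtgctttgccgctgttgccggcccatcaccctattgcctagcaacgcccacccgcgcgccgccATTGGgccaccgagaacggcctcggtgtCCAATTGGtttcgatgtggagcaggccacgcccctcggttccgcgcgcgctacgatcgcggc
Srebf1: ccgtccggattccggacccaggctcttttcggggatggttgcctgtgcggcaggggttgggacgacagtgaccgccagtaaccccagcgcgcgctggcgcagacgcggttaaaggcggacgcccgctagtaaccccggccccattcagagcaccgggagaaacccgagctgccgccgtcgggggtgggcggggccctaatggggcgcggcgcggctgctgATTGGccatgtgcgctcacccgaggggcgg
Fasn held 3 matches, at 90, 62 and 59 bases before the start, of which the last 2 overlap, and this Srebf1 window held 1 at 30 bases before the start. The Srebf1 window at chr11:60222582-60222831 also held 1 match, and that at chr11:60220628-60220877 held 0. CCAAT was found in 6 of the 11 member windows, belonging to 5 members, and in 33.8% of all 32851 windows of this length. None of the 11 windows held TCACNCCAC, a form of the sterol regulatory element (1.05% of all windows), the E-box CACGTG (6.02%), or ACANNNTGT, the glucocorticoid receptor consensus named in the study (5.84%). The Acaca window begins at chr11:84195188, inside a gene that begins at 84129672, and may not be a promoter. The Srebf1 window shown also lies inside its gene, which spans 60199089 to 60222581, as does the Srebf1 window that begins at 60220628. So do the Acacb window, which begins at chr5:114165268, and the Me1 window that begins at chr9:86687278. In the Thrsp and Elovl6 windows 180 and 129 of the 250 bases lie in exons of the same release. A match is a description of letters, and a missing match says only that these letters are not in the window.

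Each library held between 10506661 and 14686654 counts, of which the 10 members took between 0.0659% and 0.578%. Levels are given as CPM, counts scaled to library size with TMM factors. The lowest member count was 7 (Elovl6, vehicle-treated female), and all other members had at least 109 counts in every library. Mitochondrial genes took 11.71% to 36.4% of counts. The highest share was in the second weekly treated female, which also had the lowest member share. The third daily treated female had the highest member share. Myofiber markers were abundant throughout, with the 10 listed genes summing to between 124800 and 228600 CPM per library. Strand was not given for the counting. Parts of the sequence of Acaca (30.43% of 50-base windows) and Me1 (28.34%) also occur in other annotated genes, so reads of these genes may be undercounted or shared.

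In the 6 vehicle libraries the members covered a wide range of levels. Compared per length, as CPM per kilobase of exon, Me1 was highest at 72.9 ± 14.9 (SD, n = 6), followed by Acacb at 27.0 ± 3.70. Scd1 reached 18.3 ± 6.23 CPM per kilobase, Thrsp 10.5 ± 2.55 and Srebf1 7.93 ± 3.25. Scd2 had 5.81 ± 1.35 and Acly 5.38 ± 1.17 CPM per kilobase, and Fasn, the synthase itself, only 2.74 ± 0.853. Acaca (0.779 ± 0.147 CPM per kilobase) and Elovl6 (0.269 ± 0.157) were lowest. The libraries of Me1 lay above all those of Acacb, and those of Fasn above all those of Acaca, which lay above all those of Elovl6. Every other pair of neighbours in this order, from Acacb to Fasn, overlapped. Thus in vehicle muscle the Acacb isoform was well above Acaca, and the committed enzymes of fatty acid synthesis were among the scarcest members.

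The question put to the treated groups was whether the lipogenic genes changed with either schedule of prednisone, and whether males and females differed. Fasn, Scd1 and Acaca rose with daily prednisone in the mean of both sexes, by 11.3-fold, 5.64-fold and 4.35-fold. The other 7 members did not pass the test in this comparison, and no member passed it under weekly prednisone or in 1 sex alone. Under weekly prednisone in the mean of both sexes, 0 of the 13596 tested genes passed it. The weekly log2 fold changes of Fasn, Scd1 and Acaca there were 2.81, 2.38 and 1.89. Daily exceeded weekly prednisone by 0.695, 0.113 and 0.228 on that scale, and none of these differences passed. The calls thus do not separate the schedules for these genes. Scd2, Acacb and Me1 stayed within a narrow range. The steps were thus unequal, with the largest values at the synthase and at Scd1, and small ones at the isoenzymes Acacb and Scd2.

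**Figure D1:**
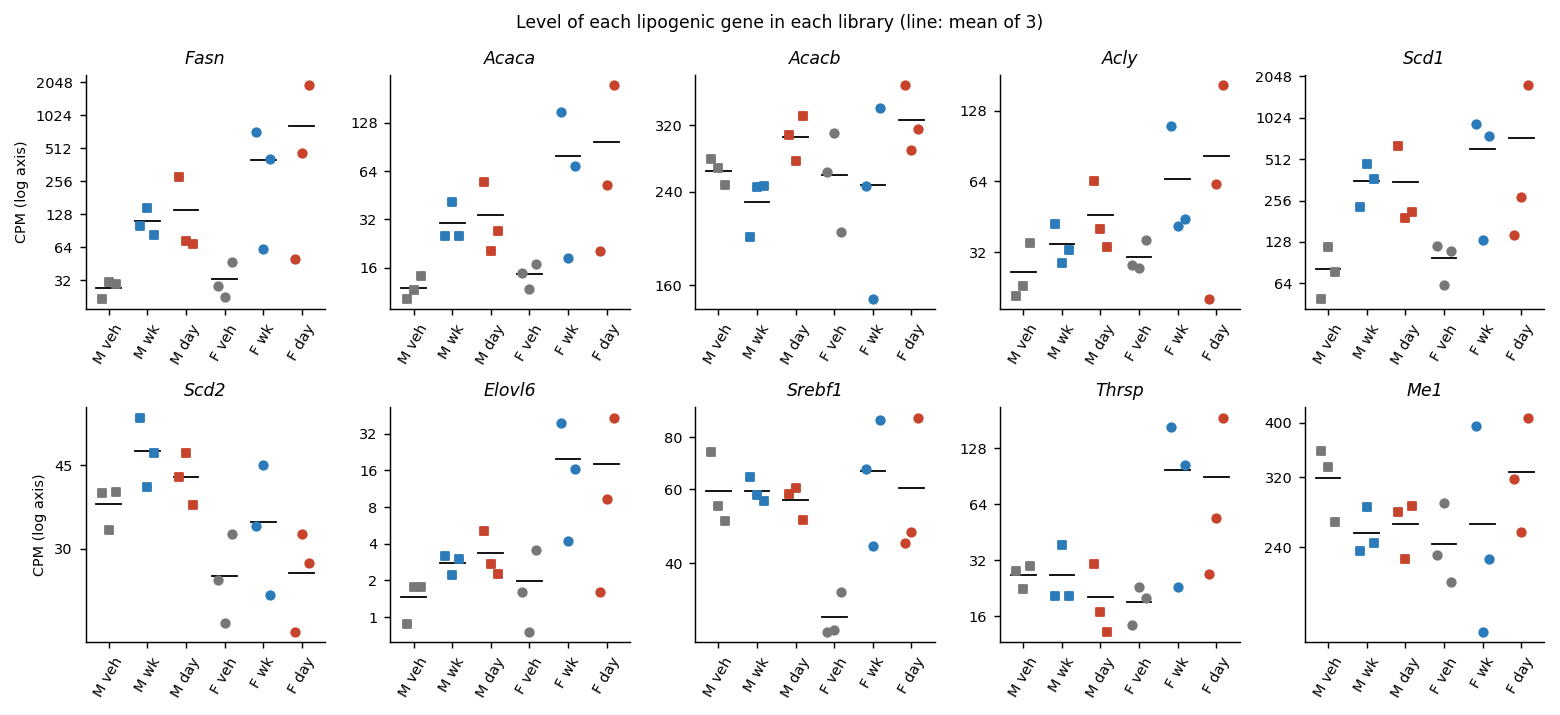
CPM of each of the 10 genes in each of the 18 libraries, on log axes that differ between panels; squares are males (M) and circles females (F), gray is vehicle (veh), blue weekly (wk) and red daily (day) prednisone, and lines are means of 3. For Fasn, Scd1 and Acaca every treated library lies above the vehicle libraries of its sex, whereas Acacb, Scd2 and Me1 overlap between most groups.

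Fasn encodes fatty acid synthase. In vehicle-treated males it was at 21.7, 30.9 and 29.3 CPM, in weekly treated males at 100.5, 147 and 83.0, and in daily treated males at 281, 73.1 and 69.0. In females the vehicle libraries had 28.1, 22.3 and 47.4 CPM, the weekly ones 719, 62.2 and 407, and the daily ones 49.8, 465 and 1916. The 12 treated libraries all lay above the vehicle libraries of their sex, but within daily treated females the highest was 38.5 times the lowest. The fitted log2 fold change for daily prednisone was 3.50 ± 0.75 (SE; edgeR quasi-likelihood test, adjusted p = 0.00768), and without the third daily treated female it was 2.675, or 6.39-fold, and still passed. For weekly prednisone it was 2.81 ± 0.73 (edgeR adjusted p = 0.208).

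Acaca encodes the cytosolic acetyl-CoA carboxylase that feeds the synthase. Vehicle-treated males had 10.3, 11.6 and 14.2 CPM, weekly treated males 25.3, 41.1 and 25.3, and daily treated males 54.6, 20.4 and 27.0. Females had 14.9, 11.8 and 17.02 CPM on vehicle, 149.6, 18.5 and 68.8 on weekly and 20.5, 52.5 and 219 on daily prednisone. Here too no treated library fell within the vehicle range of its sex. The log2 fold change was 2.12 ± 0.55 for daily prednisone (edgeR adjusted p = 0.0203) and 1.89 ± 0.55 for weekly prednisone (edgeR adjusted p = 0.229). Without the third daily treated female the daily value was 1.41 and the edgeR adjusted p = 0.059, within a range of 0.00145 to 0.822 over all alternatives.

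Scd1 encodes the stearoyl-CoA desaturase that is prominent in adipose tissue and liver. Its levels were 49.4, 117 and 77.8 CPM in vehicle-treated males, 231, 469.8 and 366 in weekly treated males and 641, 192 and 209.8 in daily treated males. In females they were 120.3, 61.9 and 110.0 CPM on vehicle, 927, 132.5 and 759.7 on weekly and 144, 269.6 and 1763 on daily prednisone. The lowest treated females lay just above the highest vehicle-treated female. The log2 fold change was 2.49 ± 0.62 for daily prednisone (edgeR adjusted p = 0.0165) and 2.38 ± 0.62 for weekly prednisone (edgeR adjusted p = 0.208). Without the third daily treated female the daily value was 1.59, or 3.01-fold (edgeR adjusted p = 0.0485).

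Elovl6, the elongase, and Acly, the citrate lyase, had positive changes that did not pass the test. Elovl6 had 0.761 to 3.58 CPM in the 6 vehicle libraries. Treated males reached 2.21 to 5.08 CPM, weekly treated females 39.3, 4.21 and 16.3, and daily treated females 1.61, 9.37 and 43.0. Its treated libraries exceeded the vehicle ones in both male comparisons and in weekly treated females, and overlapped them in daily treated females. The log2 fold change for daily prednisone was 2.18 ± 0.73 (edgeR adjusted p = 0.0594). Acly ranged from 20.8 to 36.0 CPM on vehicle, from 28.7 to 64.6 in treated males, and from 20.3 to 164 in treated females, with the first daily treated female below every vehicle library. Its log2 fold change for daily prednisone was 1.12 ± 0.40 (edgeR adjusted p = 0.0734).

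The regulators Srebf1 and Thrsp had a different layout. In males Srebf1 was at 50.4 to 73.8 CPM on vehicle, 56.4 to 64.2 on weekly and 50.8 to 60.4 on daily prednisone, so the groups overlapped. In females it was at 27.4, 27.7 and 34.1 CPM on vehicle, 67.3, 43.9 and 88.0 on weekly and 44.8, 47.6 and 88.9 on daily prednisone. Vehicle-treated females were thus below all other groups, with no overlap with any of the other 15 libraries. The log2 difference of female from male vehicle was −1.003 ± 0.26 (edgeR adjusted p = 0.102). The daily response of Srebf1 was higher in females than in males by 1.10 ± 0.36 on the log2 scale, and the weekly response by 1.16 ± 0.36. Neither difference passed the edgeR test, with adjusted p values of 0.889 and 1.0, and both rest on the same 6 vehicle libraries as the difference between the sexes.

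Thrsp had 22.3 to 29.9 CPM in vehicle-treated males, 20.5, 38.6 and 20.6 in weekly treated males and 30.7, 16.9 and 13.2 in daily treated males, which overlapped. Vehicle-treated females had 14.3, 22.9 and 20.1 CPM, weekly treated females 166, 22.9 and 104.5, and daily treated females 27.1, 54.3 and 186. All daily treated females lay above the vehicle-treated females, whereas the second weekly treated female lay within their range. The log2 fold change was 2.23 ± 0.70 for daily prednisone in females (edgeR adjusted p = 0.128) and −0.39 ± 0.68 in males (edgeR adjusted p = 0.771). Without the third daily treated female the value in females was 1.10 (edgeR adjusted p = 0.489), and with all libraries DESeq2 called it (adjusted p = 0.0403), within a range of 0.0403 to 0.944 over all alternatives. The difference between these responses was 2.62 ± 0.97 (edgeR adjusted p = 0.889). In daily treated males Fasn was 5.18-fold and Scd1 4.27-fold above vehicle (edgeR adjusted p = 0.184 for Fasn, edgeR adjusted p = 0.167 for Scd1), and without the first daily treated male these were 2.60-fold and 2.47-fold.

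Acacb, Scd2 and Me1 stood apart from the rest. Acacb, the mitochondrial carboxylase, stayed between 151 and 381 CPM in all 18 libraries, and its log2 fold change for daily prednisone was 0.28 ± 0.16 (edgeR adjusted p = 0.276). Weekly treated males lay below vehicle-treated males, at 197 to 246 CPM against 247 to 277. Daily exceeded weekly prednisone by 0.41 ± 0.16 on the log2 scale (edgeR adjusted p = 0.135). Without the third weekly treated female this difference was 0.57 and passed the test. Scd2, the desaturase most abundant in brain, lay between 20.0 and 56.6 CPM, and its log2 fold change for daily prednisone was 0.11 ± 0.16 (edgeR adjusted p = 0.698). Its 3 weekly treated males lay above the 3 vehicle-treated males, and vehicle-treated females were lower than vehicle-treated males by a log2 difference of −0.50 ± 0.22, which did not pass the test (edgeR adjusted p = 0.456). Me1, the cytosolic malic enzyme, had 169.5 to 408 CPM in the 18 libraries, and its log2 fold change for daily prednisone was 0.08 ± 0.18 (edgeR adjusted p = 0.818).

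**Figure D2:**
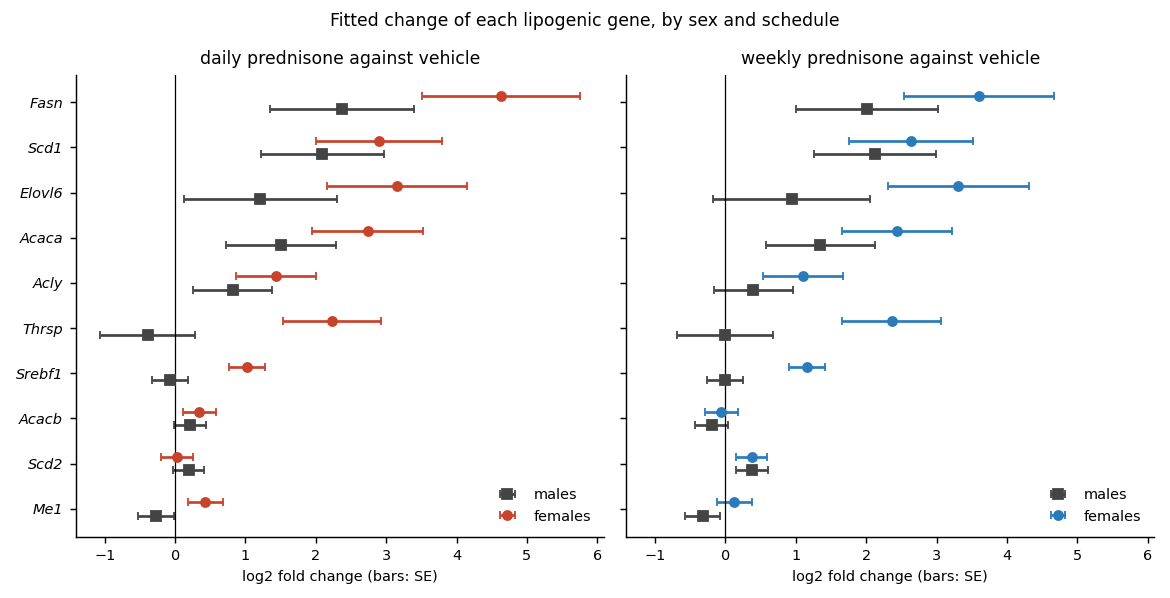
Fitted log2 fold change of each gene against vehicle of the same sex, with bars of 1 SE, for daily (left) and weekly (right) prednisone; squares are males and circles females. Fasn is the highest in females at 4.63 for daily prednisone, Thrsp and Srebf1 are near 0 or below in males and above 0 in females, and Acacb, Scd2 and Me1 lie near 0.

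Counted over the comparison of daily prednisone and vehicle in the mean of both sexes, 3 of 10 members were called at an adjusted p under 0.05, all higher, where 15% of all tested genes were called in either direction. The median log2 fold change of the members was 1.02, against 0.02 over all tested genes, and all 10 values were positive where 52.9% of all genes had a positive value. In daily treated males 0 members were called where 6.46% of all genes were, and 2 had an unadjusted p under 0.05, as did 22.8% of all genes. In daily treated females 0 members were called where 0.382% of all genes were, and 7 had an unadjusted p under 0.05, as did 17.3% of all genes. DESeq2 called 0 members in daily treated males, where it called 10.2% of all genes, and 6 in daily treated females, where it called 3.9%. limma-voom called 0 in both, and 6.34% and 0.338% of all genes. A fit of the vehicle and daily male groups alone called 3 members, Acaca, Fasn and Scd1, and 12.1% of the genes it tested.

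For weekly prednisone 0 members were called in males, in females and in the mean of both sexes, and 0.0% of all genes were called in each of these by the edgeR test. Unadjusted p values under 0.05 were given to 1 member in males, 6 in females and 7 in the mean, and to 5.71%, 7.97% and 11% of all genes. DESeq2 called 0 members in weekly treated males, 3 in females and 3 in the mean, and 0.00736%, 1.12% and 1.35% of all genes. limma-voom called 0 members and 0.0% of all genes in each. Between daily and weekly prednisone 0 members were called where 8.17% of all genes were, with 1 unadjusted p under 0.05 (24.1% of all genes), and DESeq2 and limma-voom also called 0, where they called 10.5% and 8.01% of all genes. The member median of this difference was 0.15. Between vehicle-treated females and males 0 members were called, where 0.765% of all genes were, and Srebf1 and Scd2 had an unadjusted p under 0.05, as did 10.4% of all genes. DESeq2 called 1 member there, Srebf1, and 1.73% of all genes, and limma-voom called 0 members and 0.684%. For the sex differences of both responses 0 members and 0.0% of all genes were called, with 2 unadjusted p values under 0.05 each, those of Srebf1 and Thrsp (4.69% of all genes for daily and 2.63% for weekly prednisone), and DESeq2 and limma-voom called 0 members.

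In terms of separation, all 3 treated libraries lay above all 3 vehicle libraries for 4 members in daily treated males, where 16.4% of all tested genes did so, and for 5 in weekly treated males, where 7.76% did. In females this held for 5 members under daily prednisone, where 12.9% of all genes did so, and for 6 under weekly prednisone, where 4.94% did. Fasn, Acaca and Scd1 were among these in all 4 comparisons. The comparisons of each sex share their vehicle libraries. The count of members called under daily prednisone in the mean of both sexes rested partly on single libraries of females, whose levels varied most. It was 6 without the first daily treated female, in which Fasn was lowest, and 2 without the third, in which Fasn was highest, or without the second vehicle-treated female. Over all tested genes these fits called 2475 of 13844, 1371 of 13817 and 1340 of 13906, in that order. With all libraries 2033 of 13596 were called.

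The pairs of isoenzymes were compared within each library, where no scaling between libraries enters. The count ratio of Acacb to Acaca was between 11.8 and 26.5 in the 6 vehicle libraries. It lay between 5.94 and 9.67 in weekly treated males, 5.598 and 13.4 in daily treated males, 1.65 and 8.10 in weekly treated females and 1.44 and 18.4 in daily treated females. Its mean log2 ratio was lower by −1.44 under daily prednisone (exact permutation within sex, two-sided, p = 0.025, 0.03 after adjustment over 4 tests). The first daily treated female (18.4) lay within the vehicle range of its sex. Daily treated males at 12.2 and 13.4 lay below the vehicle-treated males (17.2 to 26.5) but within the range of all vehicle libraries. Under weekly prednisone the mean log2 ratio was lower by −1.80, with all 6 treated libraries below the vehicle ones of either sex (exact permutation p = 0.005, the smallest that 400 relabellings can give, 0.01 adjusted). The ratio of the 2 carboxylases thus shifted towards Acaca, while the log2 fold change of Acacb itself was 0.28 for daily and −0.13 for weekly prednisone. A ratio within a library does not take out differences in the mix of cells, here or for Scd1 and Scd2. The part of such differences in the 2 ratios was not tested.

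The count ratio of Scd1 to Scd2 was between 1.26 and 3.56 in vehicle-treated males and between 2.95 and 4.65 in vehicle-treated females. In males it lay between 4.08 and 11.5 on weekly and 4.01 and 15.1 on daily prednisone. In females it lay between 2.94 and 31.5 on weekly and 7.13 and 62.9 on daily prednisone. The mean log2 ratio was higher by 1.93 for daily prednisone, with all 6 treated libraries above the vehicle libraries of their sex (exact permutation p = 0.005, 0.01 adjusted). For weekly prednisone it was higher by 1.85, with the second weekly treated female just below the vehicle range of its sex (exact permutation p = 0.03, 0.03 adjusted). A weekly Scd1 to Scd2 difference and a daily Acacb to Acaca difference lost their call when some single vehicle libraries were left out, with p values up to 0.055 and 0.08 by exact permutation.

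**Figure D3:**
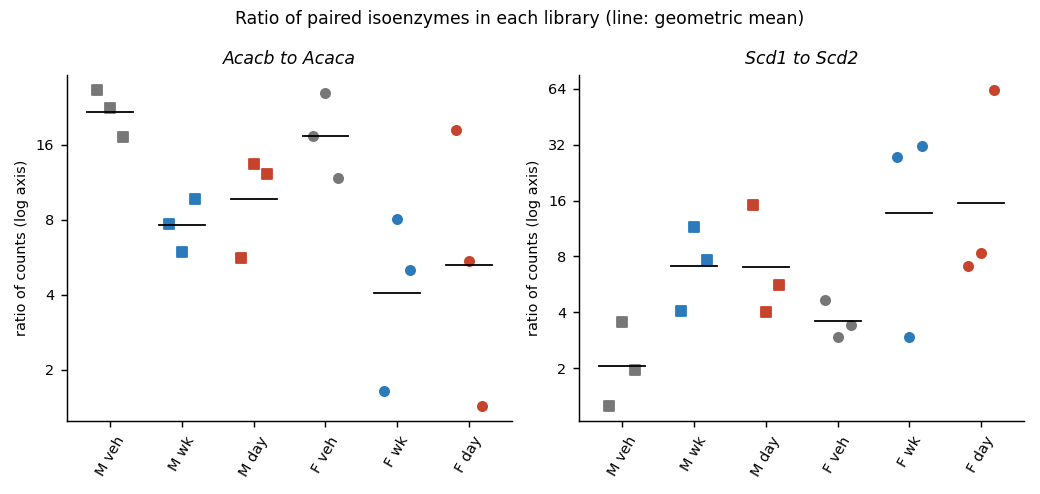
Ratio of counts of Acacb to Acaca (left) and of Scd1 to Scd2 (right) in each library, on log axes, with squares for males (M) and circles for females (F), gray for vehicle (veh), blue for weekly (wk) and red for daily (day) prednisone, and lines at the geometric mean. Ratios of Acacb to Acaca are lower and those of Scd1 to Scd2 higher in most treated libraries, and treated females spread over the widest range.

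Adipocyte markers moved in the same libraries. Of 10 listed markers, 9 were called higher under daily prednisone in the mean of both sexes. Among the 10 were Adipoq (adiponectin), Plin1 (the main lipid droplet coat of adipocytes) and Pparg. In that comparison 15% of all tested genes were called in either direction, and the median log2 fold change of the list was 2.59. In daily treated males 0 markers were called (6.46% of all genes) and in daily treated females 1 (0.382%). In the weekly comparisons with vehicle 0 markers and 0.0% of all genes were called. In males 9 of the 10 values were positive under each schedule. Lep (leptin) reached 2.845 CPM in 1 vehicle-treated male, above every treated male. Their summed level was 317 to 582 CPM in vehicle-treated males, 679 to 1176 in weekly and 663 to 1480 in daily treated males. In females it was 662 to 746 CPM on vehicle, 879.6 to 5530.0 on weekly and 1121 to 3256 on daily prednisone. Most of the vehicle sum was Fabp4, at 264 to 522 CPM in vehicle-treated males and 528 to 583 in vehicle-treated females. No marker was at 0 in all 3 libraries of a group. Adipoq was at 4.13 to 12.2 CPM in vehicle-treated males, 21.5 to 65.2 in weekly and 27.3 to 82.8 in daily treated males. Females had 8.81 to 11.5 CPM of Adipoq on vehicle, 15.03 to 331 on weekly and 52.9 to 203 on daily prednisone. In such bulk RNA, a different number of cells of a type and a different amount of RNA per cell cannot be told apart.

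An adipocyte score, the mean log2 CPM of these 10 markers, was between 1.98 and 3.19 in vehicle libraries and between 3.62 and 7.34 in treated ones. Over the 18 libraries the log2 CPM of Scd1 followed the score with a Pearson r of 0.93 and a Spearman rho of 0.95, and Fasn with 0.92 and 0.92 (permutation p = 1e-05 each, the smallest that 100000 permutations can give, 3.3e-05 adjusted over 10 members). Acaca had a Pearson r of 0.92 and a Spearman rho of 0.95 with the same p values, and Elovl6 0.84 and 0.76 (permutation p = 2e-05 and p = 0.00057, 5e-05 and 0.001425 adjusted). Thrsp had 0.77 and 0.56 (permutation p = 0.00022 and p = 0.01705, 0.00044 and 0.02842 adjusted), and Acly 0.70 and 0.65 (permutation p = 0.00115 and p = 0.00409, 0.001917 and 0.00818 adjusted). Srebf1 had 0.57 and 0.49 (permutation p = 0.01362 and p = 0.03851, 0.01946 and 0.05501 adjusted). Acacb (Pearson r 0.37, Spearman rho 0.31), Me1 (0.23, 0.07) and Scd2 (−0.20, −0.10) did not pass, with permutation p values of 0.1317, 0.3603 and 0.4265 for Pearson r and 0.2047, 0.7859 and 0.6837 for Spearman rho. Without the 2 libraries farthest from the median score, both from treated females, Pearson r was 0.92 for Scd1, 0.91 for Fasn, 0.93 for Acaca, 0.76 for Elovl6, 0.68 for Acly, 0.60 for Thrsp and 0.31 for Srebf1. The pooled relation of Srebf1 was thus weaker without those libraries, and by sex its r was −0.22 in males and 0.96 in females.

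The relation was also computed within groups, after taking out the mean of each of the 6 groups, so that differences between group means could not enter. Groups with a wide spread of the score weighed more, as weekly treated females (3.62 to 7.34) did against vehicle-treated ones (2.99 to 3.19). Pearson r was then 0.90 for Scd1, 0.84 for Thrsp, 0.82 for Acaca and 0.80 for Fasn (exact permutation within groups, p = 0.000557, p = 0.0158, p = 0.01693 and p = 0.006902). Adjusted over the 10 members these were 0.005573, 0.04233, 0.04233 and 0.03451. For Elovl6, Srebf1, Acacb, Me1, Acly and Scd2 the adjusted exact permutation p was above the threshold, with within-group r of 0.71, 0.70, 0.60, 0.52, 0.50 and −0.47. By sex, the pooled r of Thrsp was 0.02 in males and 0.93 in females, and that of Srebf1 −0.22 in males and 0.96 in females, whereas those of Fasn (0.97 and 0.90), Scd1 (0.99 and 0.93) and Acaca (0.96 and 0.90) were high in both sexes.

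**Figure D4:**
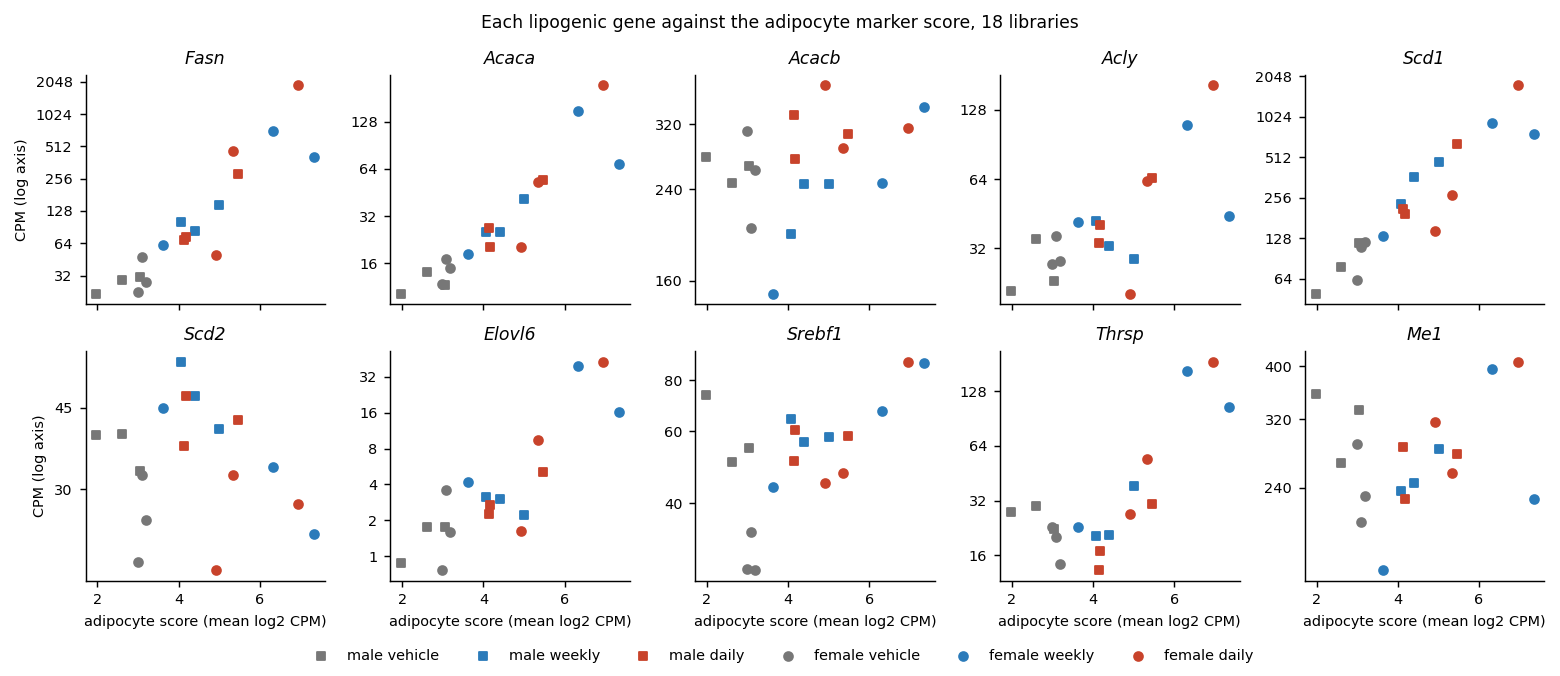
CPM of each gene (log axes) against the adipocyte score, the mean log2 CPM of 10 adipocyte markers, in 18 libraries; squares are males, circles females, gray vehicle, blue weekly and red daily prednisone. Fasn, Acaca and Scd1 rise with the score across treated and vehicle libraries of both sexes, Thrsp and Srebf1 do so among females, and Acacb, Scd2 and Me1 show no clear rise.

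With the score as a covariate beside the group means, 0 members were called under daily prednisone in the mean of both sexes by the edgeR test. Without the score 15% of all genes were called there, and with it 0.0%. The log2 fold changes were then 0.25 for Fasn, −0.44 for Scd1 and −0.33 for Acaca. The score did not overlap between vehicle and treated libraries, so score and treatment can hardly be told apart in this fit. The calls and medians of the marker lists that follow are for daily prednisone in the mean of both sexes, fitted without the score. Of 4 tested brown adipocyte markers 1 was called higher and the list median was 3.26. The brown fat gene Ucp1 reached 26.6 CPM in daily treated females and 307.5 CPM in 1 weekly treated female, against at most 0.179 CPM in vehicle libraries. Macrophage markers had 1 of 8 called higher and a median of 0.08. Their sum was 54.4 to 67.8 CPM in daily treated females and 36.9 to 68.9 CPM in vehicle-treated ones. In weekly treated females, which are not part of that comparison, it was 85.2 to 103.7 CPM. Of the Schwann cell, endothelial and fibroblast lists (6 each) none was called, with medians of 0.13, −0.07 and −0.12. Of 4 hepatocyte genes only Cyp2e1 passed the filter on low counts, and it was called higher, with 3.01, while Alb (albumin) stayed at or under 1.413 CPM in every library. Of 10 myofiber markers 2 were called lower and the median was −0.06. The part of these markers in the member values was not tested beyond the fit with the score.

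Members varied together in a graded way. Among Fasn, Acaca, Acly, Scd1, Elovl6 and Thrsp, a set picked after their values were seen, Pearson r of log2 CPM over 18 libraries lay between 0.73 and 0.98 in 15 pairs, and between 0.75 and 0.96 within groups. The other 30 pairs had a median r of 0.23 and a range from −0.60 to 0.62. The closest pair was Fasn and Acaca (r = 0.98), and the lowest value was that of Acacb and Scd2 (r = −0.60, and −0.92 within groups). These values share the libraries, their depth and the adipocyte score, and are given without a test.

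Of tested genes that are no members, the 8 most like the mean of the members' standardised levels over 18 libraries were Cdsn (r = 0.96), Tkt (0.95), Pygl (0.95), Slc25a1 (0.92), Tmem120b (0.92), Orm1 (0.92), Pank3 (0.92) and Aco1 (0.91), with unnamed gene models passed over. Tkt encodes transketolase, Pygl the liver form of glycogen phosphorylase, and Slc25a1 the mitochondrial citrate carrier. Within groups their r lay between 0.86 and 0.99. Ranked by the same measure among all tested genes, Acaca stood at 2, Fasn at 4 and Scd1 at 10, whereas Acacb stood at 2709 and Scd2 at 6466, although each member is itself part of the mean.

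Genes around the pathway were described from 5 lists, for daily prednisone against vehicle in the mean of both sexes, where 15% of all tested genes were called. Of 11 genes of citrate supply and NADPH, 3 were called higher and none lower, with a list median of 0.63. Slc25a1, which carries citrate out of mitochondria, rose by 2.06 ± 0.60 (edgeR adjusted p = 0.0326). Tkt rose by 1.65 ± 0.52 (edgeR adjusted p = 0.0469) and G6pdx, the first enzyme of the pentose phosphate pathway, by 0.94 ± 0.29 (edgeR adjusted p = 0.0367). When each of the 12 libraries was left out in turn, Tkt lost its call in 11 fits, G6pdx in 8 and Slc25a1 in 7.

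Of 12 tested glyceride synthesis genes 3 were called higher and none lower, with a median of 0.62. Dgat2, which makes triglyceride from diglyceride, rose by 2.25 ± 0.56 (edgeR adjusted p = 0.0157). Agpat2, the acyltransferase that makes phosphatidic acid, rose by 2.12 ± 0.59 (edgeR adjusted p = 0.0264), and Gpam, the mitochondrial acyltransferase that starts the pathway, by 1.10 ± 0.20 (edgeR adjusted p = 0.0024). Agpat2 lost its call in 5 of 12 fits that left out a library, and the other two in 0. Of 11 tested genes of other chain elongation and desaturation, Hacd2 (1.68 ± 0.43, edgeR adjusted p = 0.0183) and Hsd17b12 (1.19 ± 0.38, edgeR adjusted p = 0.0455) were called higher, and Hacd1, the muscle form of the dehydratase, was called lower (−0.47 ± 0.14, edgeR adjusted p = 0.0323). The list median was 0.10. With a library left out, Hsd17b12 lost its call in 11 of 12 fits, Hacd1 in 8 and Hacd2 in 1.

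Of 20 regulators 1 was called higher, the AMP kinase subunit gene Prkaa1 (0.38 ± 0.11, edgeR adjusted p = 0.0338), and 1 lower, the subunit gene Prkag2 (−0.34 ± 0.10, edgeR adjusted p = 0.0347), with a median of 0.04. Of 18 genes of sterol synthesis and uptake, Lss (0.68 ± 0.15, edgeR adjusted p = 0.00635) and Sc5d (0.50 ± 0.14, edgeR adjusted p = 0.0234) were called higher, with a median of 0.04. The counts of both lists, 2 of 20 and 2 of 18, were below the 15% of all genes called. Prkag2 lost its call in 9 of 12 fits that left out a library, Prkaa1 in 7, Sc5d in 3 and Lss in 0. The medians of both lists thus lay close to the 0.02 of all tested genes, and no list gene was called under weekly prednisone.

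For weekly prednisone in the mean of both sexes, the list medians were 0.55 for citrate supply and NADPH, 0.32 for glyceride synthesis, 0.24 for other chain elongation and desaturation, 0.15 for sterol genes and 0.01 for regulators. The gene of largest fitted change was Slc25a1 in the first list (2.01 ± 0.60, edgeR adjusted p = 0.237) and Agpat2 in the second (2.47 ± 0.59, edgeR adjusted p = 0.162). It was Hacd2 among the elongation and desaturation genes (1.59 ± 0.44, edgeR adjusted p = 0.212) and Insig1, whose product retains SREBP precursors in the endoplasmic reticulum, among the regulators (1.16 ± 0.50, edgeR adjusted p = 0.415). With the adipocyte score as a covariate no gene of the 5 lists was called under daily prednisone in the mean of both sexes. That fit called 0.0% of all genes there.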

How the data were processed

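Poly(A) RNA of quadriceps myofibers was sequenced in 18 libraries, 6 groups of 3 per the labels, whose p values measure only the spread between these samples. Raw counts of reads for each gene were deposited, made by the authors with TopHat2 2.1.0, Bowtie2 2.2.6 and HTSeq. The submitters' notes list the builds mm10 and mm9, and the strand setting and annotation release are not given in the sources used here. A deposited gene length column was not used. Exon lengths came from GENCODE mouse release 21.

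The fit used edgeR 4.0.16 under R 4.3.3, with filterByExpr with a minimum count of 10, TMM factors, and a robust quasi-likelihood fit of 6 group means over 18 libraries. Benjamini-Hochberg adjustment ran over 13596 genes with calls under 0.05, and standard errors came from the log2 fold change and F statistic. Log2 CPM used a prior count of 2. Steps were tested on simulated data. Ratios were tested by exact permutation within sex, and relations to the adipocyte score by permutation. Alternatives were DESeq2 1.42.0 and its size factors, limma-voom (limma 3.58.1), other filters, the compared groups alone, a replicate block, the adipocyte score as covariate, and leaving out each library. Total counts were 10506661 to 14686654 per library.

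The members and all lists were chosen with earlier results of these data known. Named genes were all members, up to 4 called genes per pathway list and comparison or the largest change where none was called, and the 8 genes most like the member mean. The Scd1 and Scd2 start site windows were not used here. The value of 1 pathway list gene is not reported here.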

Additional observations from a re-analysis of the deposited data

How the results depend on the processing

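No replicate of a group could be tested as an outlier with 3 libraries, and a low Elovl6 count limits that gene. With DESeq2 size factors in the edgeR fit no named gene changed its call, and the regulators had 3 calls in place of 2. The count of members called was 6 in daily treated females, 5 for daily prednisone in the mean of both sexes, 3 in weekly treated females, 3 for weekly prednisone in the mean and 1 between vehicle groups under DESeq2. In that order, DESeq2 called 3.9%, 17.3%, 1.12%, 1.35% and 1.73% of all genes. The count of members was 1 in daily treated females under the stricter filter (at least 2 CPM on average), where 1.44% of tested genes were called. When only the compared groups were fitted it was 3 in daily treated males (12.1% of tested genes) and 1 between vehicle groups (0.963%). With the adipocyte score as covariate it was 0 for daily prednisone in the mean of both sexes, where 0.0% of all genes were called. Between vehicle groups it was 1, Srebf1, where 0.772% of all genes were called. Leaving out 1 library gave 2 to 6 members for daily prednisone in the mean, 0 to 3 in daily treated females, 0 to 2 in weekly treated females and 0 to 1 for daily against weekly prednisone. The highest values came without the first daily treated female for daily prednisone, without the second weekly treated female in weekly treated females and without the third for daily against weekly prednisone. Without the first daily treated female 2475 of 13844 tested genes were called for daily prednisone in the mean and 126 in daily treated females. The fits for weekly treated females and for daily against weekly prednisone called 253 of 13839 and 1052 of 13846. With all libraries these were 2033, 52, 0 and 1111 of 13596.

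Samples with the same number deviated together, with every correlation above 0.1, in only 1 of 9 pairs of groups (weekly and daily treated females), so the numbers were not taken to pair samples. With the replicate block 3 members, the count without it, and 14.7% of all genes were called for daily prednisone in the mean of both sexes. Tkt (1.59) and Prkag2 (−0.34) lost their call. In the other comparisons 0 members were called. With permutation in such blocks the ratio differences were −1.44 for Acacb to Acaca under daily and 1.85 for Scd1 to Scd2 under weekly prednisone, no longer past the threshold (exact permutation p = 0.0625 for both). Such blocks allow few arrangements, so only the most extreme can pass, and the loss of the call says little about these differences. Leaving out 1 library gave −1.90 to −0.98 and 1.55 to 2.41 for these, and the cause was not tested.

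The list counts, all chosen as alternatives after seeing the data, were as follows. For citrate supply and NADPH, DESeq2 gave 6, limma-voom 0, no filter 1, the stricter filter 5, the compared groups alone 6, and leaving out a library 0 to 4. For other elongation and desaturation, limma-voom gave 1, no filter 1, and leaving out a library 0 to 4. For regulators, no filter gave 1, the stricter filter 4, and leaving out a library 0 to 4. Leaving out a library gave 2 to 3 for glyceride and 1 to 3 for sterol genes. Leaving out the third daily treated female gave 0 for the first 3 of these lists and 1 for sterol genes. Leaving out the second vehicle-treated female gave 0 for citrate supply and regulators and 1 for the elongation and sterol lists. With the adipocyte score as covariate each of the 5 lists had 0, where 0.0% of all genes were called. These counts are for daily prednisone in the mean of both sexes. DESeq2 called 17.3% of tested genes there, limma-voom 13.7%, no filter 6.7%, the stricter filter 20.0% and the compared groups alone 17.9%.

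The score as covariate also turned the direction of 22 of 41 gene values. Under daily prednisone in the mean of both sexes these were Acaca (−0.33), Acacb (−0.14), Acly (−0.018), Scd1 (−0.44), Elovl6 (−0.46), Srebf1 (−0.13), Thrsp (−1.27), Me1 (−0.36), Slc25a1 (−0.61), Tkt (−0.72), G6pdx (−0.22), Hacd2 (−0.11), Hsd17b12 (−0.40), Dgat2 (−0.30) and Agpat2 (−0.60). In daily treated males they were Fasn (−0.33) and Scd1 (−0.25), and in daily treated females Scd1 (−0.63) and Thrsp (−0.32). Under weekly prednisone in the mean they were Fasn (−0.075), Acaca (−0.34) and Scd1 (−0.22). Leaving out a library turned Me1 under daily prednisone (−0.018 to 0.154) and Srebf1 in daily treated males (−0.16 to 0.13). The correlation with the score turned for Scd2 without the 2 farthest libraries (0.064) and in males (0.36), for Srebf1 in males (−0.22) and for Me1 in males (−0.52), alternatives added after seeing the data.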
